A study of Mus musculus with 12 samples.

Results

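The genes described here are 9 genes of red blood cells, chosen by name from the 43280 genes of the count matrix. They are the embryonic globins Hbb-y, Hba-x and Hbb-bh1, the adult globins Hbb-bs, Hbb-bt, Hba-a1 and Hba-a2, the haem enzyme gene Alas2 and the membrane transporter gene Slc4a1. Of the 9, 8 had at least 1 read in some library and 7 passed the filter on low counts. Hba-a2 had 0 counts in all 12 libraries, and Hbb-bh1 had too few for a test. The 8 genes with counts all had their highest mean in Kit- K5- cells, where Hbb-bs, Hbb-bt and Hba-a1 averaged 23.9, 24.4 and 20.004 times the next highest group, or 6.97, 7.91 and 4.88 times without Kit- K5- replicate 1. The globin RNA of that group was not alike between libraries: embryonic genes gave 1.63% of globin counts in replicate 1, against 36.9% and 43.0% in replicates 2 and 3.

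The tissue was the submandibular gland of mice at embryonic day 15. All animals carried the transgene Tg(KRT5-Venus)1Sgkd, in which the keratin 5 promoter drives the fluorescent protein Venus, so K5+ and K5- refer to that reporter and not to Krt5 RNA or protein. E-cadherin+ cells were sorted with an antibody to the receptor tyrosine kinase Kit, and total RNA was sequenced as single reads of 50 nt. The design answers what the Kit and K5 sorts separate among cells of the developing gland. All 4 groups were E-cadherin+ by the sort, with 3 libraries each: Kit+ cells with the reporter (Kit+ K5+) and without it (Kit+ K5-), and Kit- cells with it (Kit- K5+) and without it (Kit- K5-). The sources used here give neither a step that lyses or excludes red cells nor how many embryos or litters went into each library, so the p-values measure the spread between these libraries, which may be technical.

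The 12 libraries held 5589037 to 13724364 counts. Kit RNA followed the sort, with 283 to 445 CPM in the 6 Kit+ libraries and 10.03 to 26.4 CPM in the 6 Kit- libraries (CPM, read counts relative to the scaled library total). The Kit- K5- libraries went against the epithelial label, since 10 epithelial markers summed to 1507 to 2888 CPM in the other 9 libraries and to 408 to 558 CPM in these 3. The sum of 12 mesenchyme markers was 385 to 884 CPM in the other 9 libraries and 10557 to 17010 CPM in the Kit- K5- libraries. Cdh1, which encodes the E-cadherin used for the sort, had 503 to 1111 CPM in the other 9 and 149 to 198 CPM in the Kit- K5- libraries. Every group has 1 library in each run of numbers (1 to 4, 5 to 8 and 9 to 12), and these runs are given here as replicates 1, 2 and 3.

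Haemoglobin is built of alpha-type and beta-type globin chains, each holding a haem that carries oxygen. In the mouse embryo the primitive red cells, made in the yolk sac, carry embryonic globins, and the definitive red cells that the fetal liver then releases carry adult globins. Both kinds of cell circulate together in mid-gestation, and maturing primitive cells also make adult globin. Hbb-y and Hbb-bh1 are embryonic beta-type genes and Hba-x is the embryonic alpha-type (zeta) gene. Hbb-bs and Hbb-bt are the adult beta-type genes of the haplotype carried by the reference genome, and Hba-a1 and Hba-a2 are the adult alpha-type genes. Salivary epithelium is not known to make haemoglobin.

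The first 60 coding bases show which of these genes short reads can tell apart. They are from GENCODE M21 on GRCm38, read 5′ to 3′ on the gene's strand, with capitals where a base differs from Hbb-bs or, for the alpha-type genes, from Hba-a1.
Hbb-bs: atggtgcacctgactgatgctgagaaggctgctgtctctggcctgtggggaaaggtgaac
Hbb-bt: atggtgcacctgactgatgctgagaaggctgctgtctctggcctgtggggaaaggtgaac
Hbb-y: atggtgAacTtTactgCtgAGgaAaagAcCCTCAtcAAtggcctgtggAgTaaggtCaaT
Hbb-bh1: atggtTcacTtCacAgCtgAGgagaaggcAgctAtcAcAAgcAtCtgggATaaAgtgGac
Hba-a1: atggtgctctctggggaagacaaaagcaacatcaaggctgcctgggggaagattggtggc
Hba-a2: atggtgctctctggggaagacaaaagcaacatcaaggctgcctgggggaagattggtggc
Hba-x: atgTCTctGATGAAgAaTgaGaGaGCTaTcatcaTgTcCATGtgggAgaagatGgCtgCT

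Over their 441 coding bases, Hbb-bt differed from Hbb-bs at 1 base, whereas Hbb-y differed at 113 and Hbb-bh1 at 115. Over 426 coding bases, Hba-a2 differed from Hba-a1 at 1 base and Hba-x at 163. Of the 50-base stretches of each transcript, all 584 of Hbb-y, all 752 of Hba-x and all 564 of Hbb-bh1 occurred in no other gene's transcripts. Only 198 of 579 stretches were unique in Hbb-bs and 273 of 654 in Hbb-bt, and the pair shared 381. In Hba-a1 211 of 650 stretches were unique and in Hba-a2 66 of 505, with 439 shared between them. The sources used here do not say how reads matching several genes were counted. The split between Hbb-bs and Hbb-bt and between Hba-a1 and Hba-a2 is therefore uncertain, and adult globin counts are undercounts if such reads were dropped. The embryonic genes do not have this limit.

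The 7 globin genes lie in 2 clusters. On chromosome 7, minus strand, are Hbb-y (103851749 to 103853216), Hbb-bh1 (103841637 to 103843164), Hbb-bs (103826534 to 103828096) and Hbb-bt (103812524 to 103813996). On chromosome 11, plus strand, are Hba-x (32276400 to 32278116), Hba-a1 (32283511 to 32284465) and Hba-a2 (32296489 to 32297298). Slc4a1 lies elsewhere on chromosome 11 (102348824 to 102366203, minus strand) and Alas2 on chromosome X (150547375 to 150570638, plus strand).

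Against Kit- K5- cells, edgeR's quasi-likelihood test with Benjamini-Hochberg adjustment over 17030 genes called 7 of the 9 genes for Kit+ K5+ cells, 6 for Kit+ K5- cells and 6 for Kit- K5+ cells at an adjusted p below 0.05, and each of them was lower than in Kit- K5- cells. In the same comparisons 26.7%, 21.3% and 16.5% of all genes tested were called, with 14.5%, 11.1% and 9.10% called as lower and 12.2%, 10.2% and 7.38% as higher. Genes that are high in a single group pass the filter through that group, so the number called says little by itself. The 3 comparisons share the Kit- K5- libraries and are not separate evidence. In sorted bulk libraries, fewer red cells and less globin RNA per cell cannot be told apart.

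**Figure D1:**
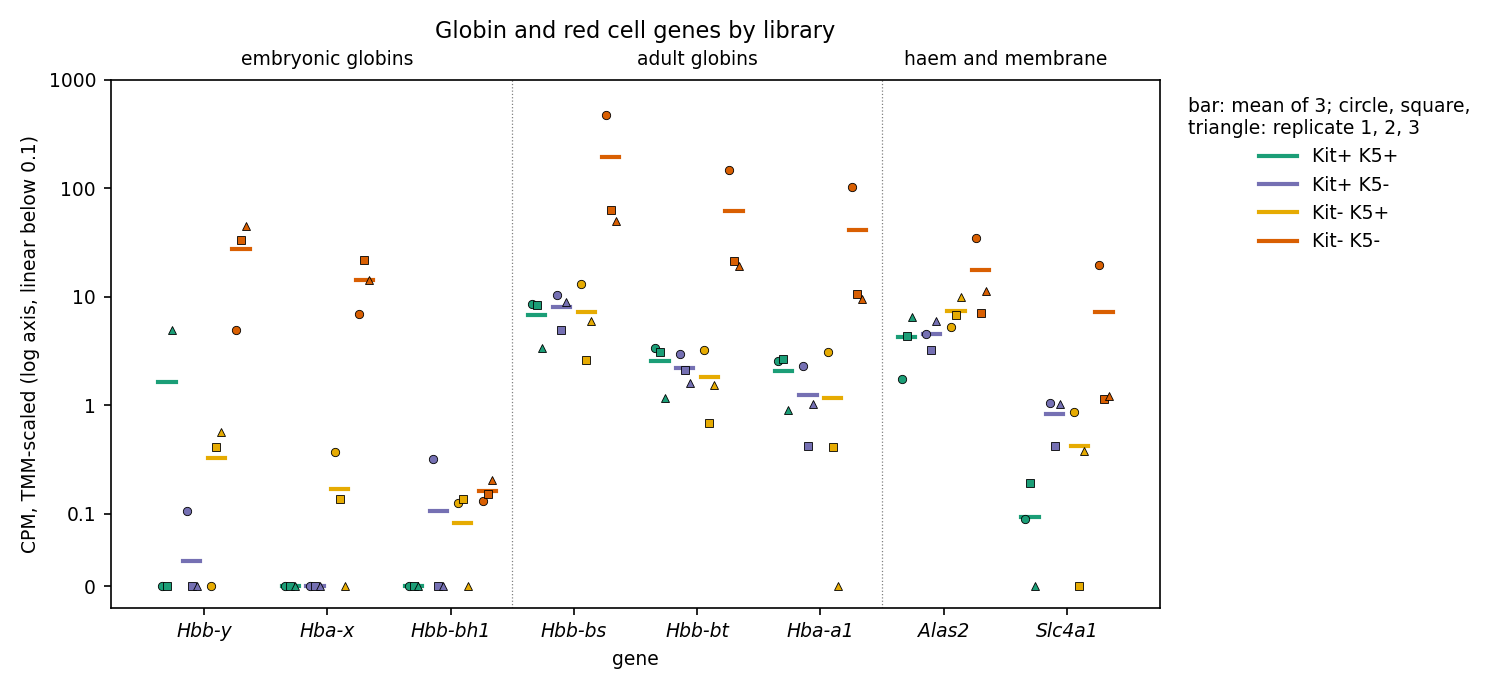
CPM of 8 of the 9 genes in each library (log axis, linear below 0.1), with symbols for replicates 1, 2 and 3 and a bar for the mean of 3. Hba-a2, at 0 in all 12 libraries, is left out. For the adult globins and for Hba-x the 3 Kit- K5- libraries lie above all 9 others, and Hbb-bs there has 470.5, 63.4 and 50.2 CPM.

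The adult beta-type gene Hbb-bs came after Alas2 in Kit- K5+ cells, with means of 7.18 and 7.36 CPM. In the other 3 groups Hbb-bs had the highest mean of the 9. It had 8.67, 8.39 and 3.36 CPM in replicates 1, 2 and 3 of Kit+ K5+ cells, 10.46, 4.95 and 9.03 CPM for Kit+ K5- cells and 13.0, 2.61 and 5.93 CPM for Kit- K5+ cells, against 470.5, 63.4 and 50.2 CPM for Kit- K5- cells. No library of the other groups reached the lowest Kit- K5- library, and replicate 1 of the Kit- K5- group stood far above its own replicates. Relative to Kit- K5- cells the log2 difference was -4.82 ± 0.85 for Kit+ K5+ cells (SE, adjusted p = 0.00112), -4.58 ± 0.84 for Kit+ K5- cells (adjusted p = 0.00176) and -4.75 ± 0.85 for Kit- K5+ cells (adjusted p = 0.00219, all edgeR). Without Kit- K5- replicate 1 the log2 differences were -3.05, -2.80 and -2.97 in the same order (adjusted p = 0.00330, 0.00605 and 0.00652), and without Kit- K5+ replicate 1 that of Kit- K5+ cells was -5.54. Leaving out any 1 library ended none of these 3 calls.

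Hbb-bt, the other adult beta-type gene, kept the same pattern at a lower level. Its mean was 2.55 ± 1.22 CPM for Kit+ K5+, 2.22 ± 0.69 CPM for Kit+ K5- and 1.82 ± 1.31 CPM for Kit- K5+ cells (SD, n = 3 each). The Kit- K5- libraries had 147, 21.3 and 19.1 CPM, and again no other library reached them. The log2 differences from Kit- K5- cells were -4.59 ± 0.80, -4.79 ± 0.82 and -5.07 ± 0.84 for Kit+ K5+, Kit+ K5- and Kit- K5+ cells (edgeR, adjusted p = 0.00111, 0.00110 and 0.00130). They were -2.97, -3.17 and -3.45 without Kit- K5- replicate 1 (adjusted p = 0.00681, 0.00577 and 0.00573), and -5.85 for Kit- K5+ cells without Kit- K5+ replicate 1. Hbb-bt held 26.9% ± 1.27, 22.3% ± 7.40 and 20.4% ± 0.42 of the counts of Hbb-bs and Hbb-bt in Kit+ K5+, Kit+ K5- and Kit- K5+ cells, against 25.5% ± 1.90 for Kit- K5- cells (SD, n = 3). The proportion of the pair thus differed little between groups whose totals lay far apart.

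Hba-a1 carried all counts of the adult alpha-type pair. It had 2.58, 2.70 and 0.90 CPM for Kit+ K5+, 2.32, 0.42 and 1.02 CPM for Kit+ K5- and 3.13, 0.41 and 0 CPM for Kit- K5+ cells, against 104, 10.6 and 9.49 CPM for Kit- K5- cells. Every Kit- K5- library lay above the others, and replicate 1 was about 10 times as high as its replicates. Hba-a1 was lower by edgeR's test in Kit+ K5+ (log2 -4.30 ± 1.09, adjusted p = 0.0106), Kit+ K5- (-5.02 ± 1.14, adjusted p = 0.00694) and Kit- K5+ cells (-5.02 ± 1.15, adjusted p = 0.00982). Without Kit- K5- replicate 1 all 3 calls were lost, at log2 -2.27, -2.99 and -3.03 (adjusted p = 0.154, 0.0829 and 0.104). Limma-voom called Hba-a1 in none of the 3 comparisons, and DESeq2 gave it no adjusted p. The value was -5.87 for Kit+ K5- cells without Kit+ K5- replicate 1 and -7.39 for Kit- K5+ cells without Kit- K5+ replicate 1. Hba-a2 had 0 counts throughout, which allows up to 0.197 to 0.574 CPM per library at 3 counts, a limit for counting error only that does not cover reads shared with Hba-a1.

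Summed over the 4 adult genes, the level was 3.71 to 19.4 CPM in the 9 libraries of the other groups, against 721, 95.3 and 78.8 CPM in Kit- K5- replicates 1, 2 and 3. Within a run, adult globin CPM in the other groups was 2.03% to 2.69% of the Kit- K5- level in replicate 1, 3.89% to 14.9% in replicate 2 and 6.89% to 14.8% in replicate 3. The Kit- K5- libraries were thus 6.73 to 49.2 times as high as the other libraries of their run. By run they were 37.2 to 49.2 times as high in replicate 1, 6.73 to 25.7 times in replicate 2 and 6.76 to 14.5 times in replicate 3.

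Hbb-y, the embryonic beta-type gene that primitive red cells carry as they mature, had 0, 0 and 4.91 CPM for Kit+ K5+, 0.11, 0 and 0 CPM for Kit+ K5- and 0, 0.41 and 0.57 CPM for Kit- K5+ cells, against 4.92, 33.8 and 44.8 CPM for Kit- K5- cells. All 38 Hbb-y counts of the Kit+ K5+ group were in replicate 3, at nearly the level of the lowest Kit- K5- library. In summed counts Hbb-y was 19.1 times lower in Kit+ K5+ cells (95% exact counting interval 13.8 to 27.2), 647 times lower in Kit+ K5- cells on a single count (116 to 25595) and 85.7 times lower in Kit- K5+ cells on 6 counts (39.2 to 234). These intervals cover counting error only and not the spread between libraries.

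By edgeR's test Hbb-y was lower than in Kit- K5- cells in all 3 groups (adjusted p = 0.0314, 0.00429 and 0.0133 for Kit+ K5+, Kit+ K5- and Kit- K5+ cells). The call in Kit+ K5+ cells was lost without Kit+ K5+ replicate 1 or 2 (adjusted p = 0.0719 and 0.0766) and without Kit- K5- replicate 2 or 3 (0.0794 and 0.102). The call in Kit- K5+ cells was lost without Kit- K5+ replicate 1 or 2 (adjusted p = 0.0502 and 0.0504). No left-out library ended the call in Kit+ K5- cells.

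Hba-x, the embryonic alpha-type gene, had 0 counts in all 3 Kit+ K5+ and all 3 Kit+ K5- libraries. It had 0.38, 0.14 and 0 CPM for Kit- K5+ cells, against 6.89, 21.9 and 14.4 CPM for Kit- K5- cells. Among the 9 genes it separated the Kit- K5- libraries from the rest with the least spread inside that group, at 14.4 ± 7.51 CPM (SD, n = 3). Taking 3 counts over a group as the floor, Hba-x was at least 135-fold lower in Kit+ K5+ and at least 120-fold lower in Kit+ K5- cells, and 71.6 times lower in Kit- K5+ cells on 4 counts (95% exact counting interval 27.8 to 264). EdgeR called it in all 3 comparisons (adjusted p = 0.000348, 0.000436 and 0.00190), and no left-out library ended a call.

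Hbb-bh1, the beta-type gene that comes first in primitive red cells, was close to the detection limit. It had 0 counts for Kit+ K5+ cells, 3 for Kit+ K5- cells and 2 for Kit- K5+ cells, against 6 for Kit- K5- cells, where each library had 2. It did not pass the filter, and in summed counts it was 1.61 times lower in Kit- K5+ cells than the Kit- K5- group with a counting interval of 0.29 to 16.4. A difference between groups was not detectable at this depth.

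**Figure D2:**
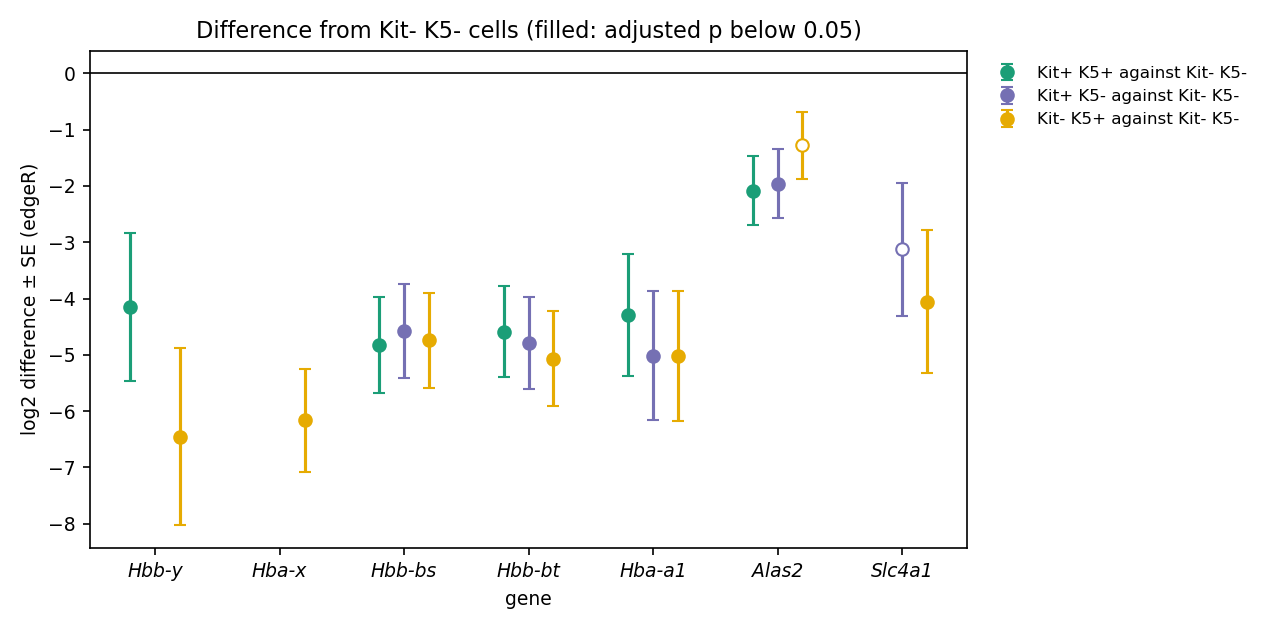
Log2 difference from Kit- K5- cells (vertical axis, edgeR, error bars SE) for the 7 genes tested, filled where the adjusted p was below 0.05. Not drawn are Hba-x in both Kit+ groups, at 0 counts, and Hbb-y in Kit+ K5- and Slc4a1 in Kit+ K5+ cells, at 1 to 3 counts, where the fitted value is no bound; the adult globins lie between -4.30 and -5.07, and Alas2 lies nearest to 0.

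The embryonic genes were set against the adult ones as a share of all globin counts in a library. Outside the Kit- K5- group the share rested on 32 to 159 globin counts per library. Kit+ K5+ libraries had 0% of 159, 0% of 147 and 47.5% of 80 counts (95% exact Clopper-Pearson interval 36.2 to 59.0), all of the last from Hbb-y. Kit+ K5- libraries had 2.61% (0.72 to 6.56), 0% and 0%, and Kit- K5+ libraries had 2.52% (0.69 to 6.32), 15.6% (5.28 to 32.8) and 7.14% (1.498 to 19.5). A share of 0 there allows 1.89% to 4.23% at 3 counts.

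Kit- K5- replicate 1 had 182 embryonic among 11176 globin counts, or 1.63% (1.402 to 1.88). Replicate 2 had 36.9% (34.8 to 39.1) and replicate 3 43.0% (40.3 to 45.7). Replicate 1 therefore stood apart in composition as well as in amount. Its summed embryonic level of 11.9 CPM was the lowest of the group, against 55.9 and 59.4 CPM in replicates 2 and 3, while its adult level of 721 CPM was the highest. The Kit- K5- mean of 27.2% ± 22.3 (SD, n = 3) describes none of the 3 libraries. In replicates 2 and 3 the intervals of all but 1 of the 6 libraries of other groups lay below that of the Kit- K5- library of the same run, the exception being Kit+ K5+ replicate 3. In replicate 1 the intervals of the other 3 libraries all held the 1.63% of the Kit- K5- library.

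Weighting each gene by its unique 50-base stretches, to allow for reads shared by the adult genes, lowered the shares but left their order in the Kit- K5- group. They were then 24.8% for Kit+ K5+ replicate 3, and 0.52%, 16.3% and 20.7% for Kit- K5- replicates 1, 2 and 3. On counts per unique kilobase, Hbb-bs had 2376, 320 and 254 CPM per kb in Kit- K5- replicates 1, 2 and 3. Hbb-y had 8.42, 57.9 and 76.7 CPM per kb there, and Hba-x 9.16, 29.1 and 19.1. The means of Hbb-bs, Hbb-y and Hba-x were 983 ± 1207, 47.7 ± 35.3 and 19.1 ± 9.99 CPM per kb (SD, n = 3).

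**Figure D3:**
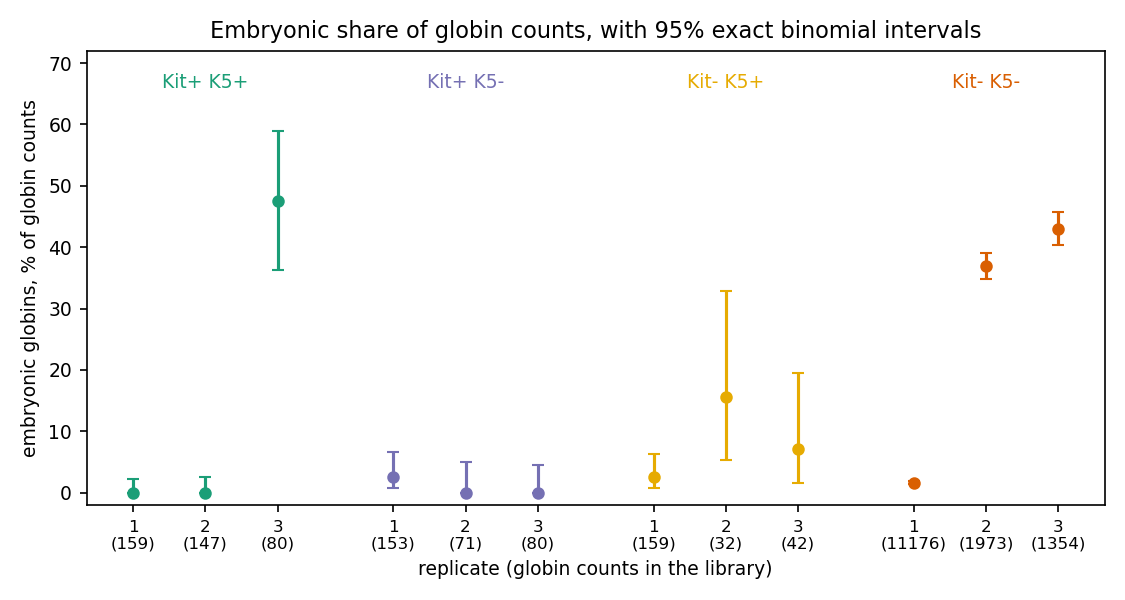
Embryonic globins as a percentage of all globin counts (vertical axis) in each library, with 95% exact binomial intervals and the number of globin counts in brackets. Kit+ K5+ replicate 3 stands apart from its replicates at 47.5% of 80 counts, and Kit- K5- replicate 1 lies at 1.63% with replicates 2 and 3 at 36.9% and 43.0%.

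The 2 embryonic genes did not keep a fixed ratio between runs. Hba-x was 0 of the 38 summed Hba-x and Hbb-y counts in Kit+ K5+ replicate 3, with an interval up to 9.25%. It made up 58.3% of these counts in Kit- K5- replicate 1 (50.8 to 65.6), 39.3% in replicate 2 (35.8 to 43.0) and 24.3% in replicate 3 (20.9 to 28.0), so none of the 4 intervals overlapped. Hba-a1 held 14.4% (13.7 to 15.04), 11.2% (9.48 to 13.1) and 12.05% (9.83 to 14.6) of adult globin counts in Kit- K5- replicates 1, 2 and 3, so the intervals of replicates 1 and 2 did not overlap here either.

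Across the 12 libraries the log2 levels of summed adult and summed embryonic globins had a Pearson correlation of 0.682, given as a description only. The points share the split of Kit- K5- from the rest, and inside the Kit- K5- group the library with the most adult globin had the least embryonic globin.

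**Figure D4:**
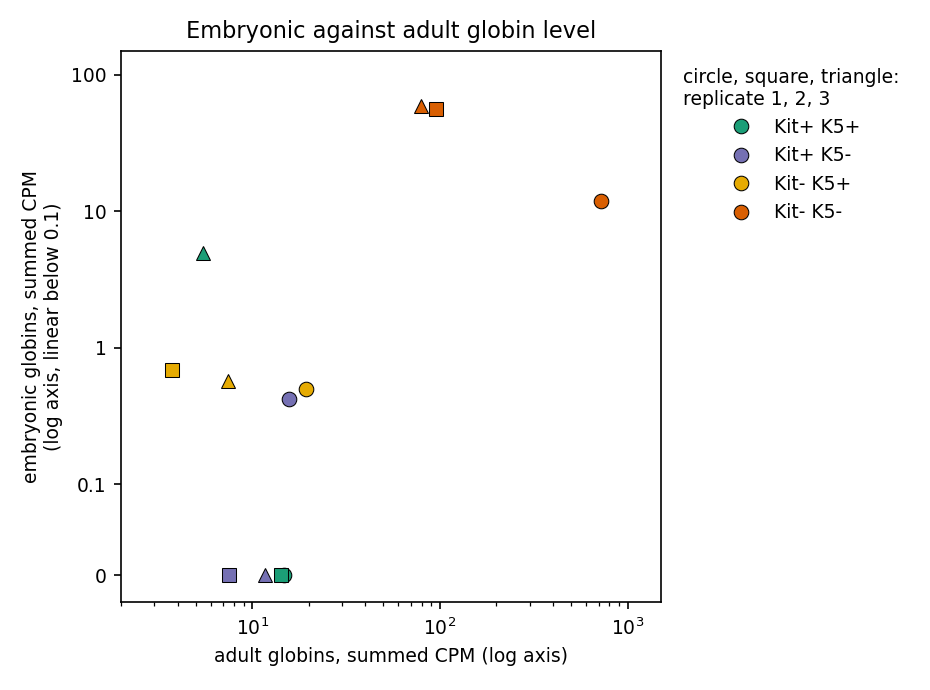
Summed embryonic globin level against summed adult globin level in CPM, 1 symbol per library (log axes, the vertical one linear below 0.1). Kit- K5- libraries take the upper right, with 721 CPM adult and 11.9 CPM embryonic in replicate 1 against 95.3 and 55.9 CPM in replicate 2.

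Alas2 encodes the red cell form of 5-aminolevulinate synthase, the entry step of haem synthesis. It had 1.75, 4.34 and 6.59 CPM for Kit+ K5+, 4.54, 3.26 and 5.97 CPM for Kit+ K5- and 5.25, 6.87 and 9.95 CPM for Kit- K5+ cells, against 35.0, 7.13 and 11.2 CPM for Kit- K5- cells. Like Hbb-bs and Hbb-bt it was counted in every library, with at least 19 counts, but its Kit- K5+ and Kit- K5- values overlapped. It was lower in Kit+ K5+ (log2 -2.08 ± 0.61, adjusted p = 0.0224) and Kit+ K5- cells (-1.96 ± 0.61, adjusted p = 0.0348), whereas Kit- K5+ cells did not pass (-1.28 ± 0.60, adjusted p = 0.163, edgeR).

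The Alas2 calls depended on single libraries. Without Kit- K5- replicate 1 the adjusted p was 0.201 for Kit+ K5+ and 0.282 for Kit+ K5- cells, at log2 -1.12 and -0.999. The call in Kit+ K5+ cells was also lost without Kit+ K5+ replicate 1 or 2 (0.0814 and 0.0625), and that in Kit+ K5- cells without Kit+ K5- replicate 1, 2 or 3 (0.0719, 0.126 and 0.0570). The Alas2 transcript shares 311 of its 2037 bases with exons of Apex2 on the opposite strand, and the sources used here do not give the strand setting of the counting. Apex2, a DNA repair nuclease gene, had 24.9 ± 4.45, 25.1 ± 8.55 and 32.0 ± 4.55 CPM for Kit+ K5+, Kit+ K5- and Kit- K5+ cells, against 44.2 ± 11.1 CPM for Kit- K5- cells (SD, n = 3). Its part in the Alas2 values was not tested.

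Slc4a1 encodes band 3, the anion exchanger that anchors the red cell membrane to its skeleton. It had 1, 2 and 0 counts for Kit+ K5+, 10, 4 and 7 for Kit+ K5- and 7, 0 and 2 for Kit- K5+ cells, against 297, 15 and 12 for Kit- K5- cells. The highest library outside the Kit- K5- group was Kit+ K5- replicate 1 with 1.06 CPM. The Kit- K5- level rested on replicate 1, with 19.5 CPM against 1.15 and 1.23 CPM in replicates 2 and 3. In summed counts Slc4a1 was 82.1 times lower in Kit+ K5+ cells on 3 counts (95% exact counting interval 27.8 to 400.1).

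By edgeR's test Slc4a1 was lower than in Kit- K5- cells in Kit+ K5+ (adjusted p = 0.00776) and Kit- K5+ cells (log2 -4.06 ± 1.27, adjusted p = 0.0432). Kit+ K5- cells missed the threshold (log2 -3.12 ± 1.18, adjusted p = 0.0756), and passed with no filter on low counts (adjusted p = 0.00763). Without Kit- K5- replicate 1 the adjusted p was 0.107 for Kit+ K5+ and 0.538 for Kit- K5+ cells. The call in Kit- K5+ cells was lost without any Kit- K5+ library (replicates 1, 2 and 3, 0.0551, 0.115 and 0.102), without Kit+ K5+ replicate 1 or 2 (0.0504 and 0.0517) and without Kit+ K5- replicate 3 (0.0527).

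Among the 3 groups with low globin, edgeR called none of the 9 genes. Kit+ K5+ against Kit- K5+ cells had 0.658% of all genes called, Kit+ K5+ against Kit+ K5- cells 0% and Kit+ K5- against Kit- K5+ cells 2.67%. At an unadjusted p below 0.05 there was 1 of the 9 in each, Hba-x in the comparisons with Kit- K5+ cells and Hbb-y in that of both Kit+ groups, and limma-voom and DESeq2 also called 0 in each. With the runs as a block the shares of all genes called were 4.63%, 0.317% and 7.80%, and still none of the 9 was called. The levels of Hbb-bs differed by log2 -0.08 ± 0.78 between Kit+ K5+ and Kit- K5+ cells and by -0.24 ± 0.77 between Kit+ K5+ and Kit+ K5- cells, with standard errors wide enough to hide differences of the size of 2-fold.

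The interaction asked whether the difference between K5+ and K5- cells was another one in Kit+ than in Kit- cells, and 3 of the 9 genes passed, where 4.02% of all genes tested were called. The K5 difference in Kit+ cells minus that in Kit- cells was log2 4.50 ± 1.11 for Hbb-bs (edgeR, adjusted p = 0.0374). It was 5.27 ± 1.12 for Hbb-bt (adjusted p = 0.0168) and 11.4 ± 2.47 for Hbb-y (adjusted p = 0.0195, edgeR). The Hbb-y value is no bound, since the Kit+ K5- level rested on 1 count. For Hbb-bs the K5 difference was -0.24 ± 0.77 in Kit+ cells and -4.75 ± 0.85 in Kit- cells. A positive value means that K5+ cells stood higher relative to K5- cells among Kit+ than among Kit- cells. Hba-a1 missed the threshold (5.74 ± 1.55, adjusted p = 0.0558) and passed with the runs as a block (5.995 ± 1.008, adjusted p = 0.00302, where 8.33% of all genes were called). Hba-x gave no usable interaction, since both Kit+ groups were at 0. Limma-voom called 0 of the 9 in the interaction, with 3 at an unadjusted p below 0.05. DESeq2 called 3, Hbb-y, Hba-x and Hbb-bs, and gave no adjusted p for Hbb-bt and Hba-a1. Its Hba-x call has the limit just given, with both Kit+ groups at 0.

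Single libraries decided part of these interaction calls. The Hbb-y value rested on the 38 counts of Kit+ K5+ replicate 3, and without that library it was 4.46 ± 44.2 (adjusted p = 0.974). It was also lost without Kit+ K5- replicate 2 (adjusted p = 0.0561) or without Kit- K5+ replicate 2 (0.0510). The Hbb-bs call was lost without Kit+ K5+ replicate 1 or 2 (adjusted p = 0.0732 and 0.0867), Kit+ K5- replicate 2 or 3 (0.0903 and 0.0705), Kit- K5+ replicate 2 or 3 (0.0837 and 0.0750) or Kit- K5- replicate 1 (0.0915). Hba-a1 passed if Kit+ K5- replicate 1, Kit- K5+ replicate 1 or else Kit- K5- replicate 3 was left out (0.0441, 0.0282 and 0.0386). Leaving out single libraries did not end the Hbb-bt call, but its value was 3.65 without Kit- K5- replicate 1 (adjusted p = 0.0479) and 6.06 without Kit- K5+ replicate 1. The Hbb-bs value was 2.72 and 5.30 without the same libraries.

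Other genes of red cells went both ways. Of 14 erythroid transcription factors, 11 were tested, and against Kit- K5- cells 4 were higher and 0 lower for Kit+ K5+, 2 and 0 for Kit+ K5- and 4 and 2 for Kit- K5+ cells. Of all genes tested, 12.2%, 10.2% and 7.38% were higher and 14.5%, 11.1% and 9.10% lower, in the same order. Bcl11a, a repressor of embryonic globin genes in red cells that other tissues also express, was higher in all 3 groups, with 202 ± 53.2, 155 ± 62.1 and 195 ± 38.5 CPM, against 41.4 ± 26.2 CPM for Kit- K5- cells (adjusted p = 0.00280, 0.00919 and 0.00520, edgeR). Gata1 and Klf1, the factors that switch on globin genes, did not pass the filter. Gata1 had 0 counts for Kit+ K5+, 26 for Kit+ K5- and 3 for Kit- K5+ cells, against 6 for Kit- K5- cells, and 20 of the 26 were in Kit+ K5- replicate 1. Klf1 averaged 0.71 ± 0.21, 1.23 ± 0.53 and 0.70 ± 0.30 CPM for Kit+ K5+, Kit+ K5- and Kit- K5+ cells, against 0.32 ± 0.24 CPM for Kit- K5- cells (SD, n = 3).

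Lmo2 and Lyl1, partners in the blood transcription factor complex, were lower in Kit- K5+ cells when set against Kit- K5- cells. Lmo2 had 0.54 ± 0.37 CPM for Kit- K5+ and 6.05 ± 3.997 CPM for Kit- K5- cells (log2 -3.54 ± 1.02, adjusted p = 0.0302). Lyl1 had 0.09 ± 0.08 CPM for Kit- K5+ and 4.05 ± 3.98 CPM for Kit- K5- cells (log2 -5.24 ± 1.34, adjusted p = 0.0173). Neither passed in Kit+ K5+ or Kit+ K5- cells. Both genes are also used by other blood cells and by endothelium.

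Of 22 genes of haem synthesis and iron, 21 were tested. Among them 1 was higher for each of Kit+ K5+, Kit+ K5- and Kit- K5+ cells, and 1 was lower for Kit- K5+ cells. All genes tested had 12.2%, 10.2% and 7.38% higher and 14.5%, 11.1% and 9.10% lower in these groups. The higher one was Tfrc, the transferrin receptor, with 312 ± 51.1, 282 ± 50.6 and 156 ± 73.4 CPM for Kit+ K5+, Kit+ K5- and Kit- K5+ cells, against 76.0 ± 10.2 CPM for Kit- K5- cells (adjusted p = 0.000542, 0.00101 and 0.0365, edgeR). With the runs as a block 1, 2 and 1 were higher and 2, 0 and 2 lower, where 2764, 2443 and 1872 of the 17030 genes tested were higher and 18.1%, 14.9% and 12.8% of them lower. Ftl1, the ferritin light chain, had 30.7 ± 5.18 CPM for Kit- K5+ and 56.1 ± 7.36 CPM for Kit- K5- cells (log2 -0.87 ± 0.27, adjusted p = 0.0439). The median log2 difference over these 21 genes was -0.19, -0.16 and -0.28 for Kit+ K5+, Kit+ K5- and Kit- K5+ cells, where all genes tested had -0.04, 0.05 and 0.04.

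Membrane and skeleton genes went both ways. Of 13 tested, 3, 3 and 2 were higher and 1, 1 and 1 lower in Kit+ K5+, Kit+ K5- and Kit- K5+ cells. All genes tested had 12.2%, 10.2% and 7.38% higher and 14.5%, 11.1% and 9.10% lower, so counts this small say little by themselves. Gypc, a glycophorin, was lower with 2.12 ± 0.98, 1.88 ± 0.84 and 3.23 ± 1.38 CPM, against 21.7 ± 7.41 CPM for Kit- K5- cells (adjusted p = 0.000631, 0.000557 and 0.00337). Xk, a membrane protein of the Kell complex, and Cd24a, a surface protein of red cells and of epithelia, were higher in all 3 groups, with log2 differences of 1.65 to 2.65 for Xk and 1.35 to 1.77 for Cd24a.

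Of 11 tested among the other red cell genes, 3, 2 and 2 were lower and 0 higher in Kit+ K5+, Kit+ K5- and Kit- K5+ cells. All genes tested had 14.5%, 11.1% and 9.10% lower and 12.2%, 10.2% and 7.38% higher. Ube2l6, an enzyme of ISG15 conjugation, had 1.89 ± 1.23, 1.55 ± 0.96 and 0.21 ± 0.19 CPM, against 11.2 ± 4.12 CPM for Kit- K5- cells (adjusted p = 0.0183, 0.0145 and 0.00104). Car2, a carbonic anhydrase of red cells and other tissues, was lower in Kit+ K5+ and Kit- K5+ cells (adjusted p = 0.0220 and 0.00615) but did not pass in Kit+ K5- cells (0.226). Of 2 tested among other globin loci, Cygb, the cytoglobin of fibroblasts, had 2.72 ± 1.31, 2.46 ± 0.92 and 2.68 ± 2.35 CPM, against 101.5 ± 29.6 CPM for Kit- K5- cells (adjusted p = 3.56e-05, 3.39e-05 and 6.51e-05).

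The genes that clear haem and haemoglobin included 7 that were tested, of which 1, 1 and 0 were higher and 2, 2 and 1 lower in Kit+ K5+, Kit+ K5- and Kit- K5+ cells. With the runs as a block 1, 1 and 1 were higher and 4, 3 and 3 lower. All genes tested had 12.2%, 10.2% and 7.38% higher and 14.5%, 11.1% and 9.10% lower without the block. With it 2764, 2443 and 1872 of the 17030 were higher and 18.1%, 14.9% and 12.8% lower. Lrp1, the endocytic receptor that takes up haem bound to haemopexin, had 71.0 ± 20.1, 61.4 ± 11.6 and 166 ± 32.0 CPM, against 686 ± 202 CPM for Kit- K5- cells (adjusted p = 5.41e-06, 3.09e-06 and 0.000236). Fibroblasts also express Lrp1 and Cygb in quantity.

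Markers of other cells moved with the globins in the Kit- K5- group. The 12 mesenchyme markers are given above, and 12, 12 and 11 of them were lower in Kit+ K5+, Kit+ K5- and Kit- K5+ cells. All genes tested had 14.5%, 11.1% and 9.10% lower. The summed level of 12 macrophage and leukocyte markers was 51.9, 56.9 and 47.3 CPM for Kit+ K5+, 522, 108 and 92.2 CPM for Kit+ K5- and 64.5, 69.8 and 49.5 CPM for Kit- K5+ cells, against 981, 325 and 199 CPM for Kit- K5- cells, where replicate 1 was again the highest. The 8 endothelial markers summed to 9.96 to 25.8 CPM in the other 9 libraries and 50.5 to 60.8 CPM in the Kit- K5- libraries. The 6 markers of erythroid progenitors summed to 4.80 to 6.59, 7.79 to 20.8 and 8.52 to 9.37 CPM for Kit+ K5+, Kit+ K5- and Kit- K5+ cells, against 4.19 to 9.57 CPM for Kit- K5- cells, so they did not follow the globins. In Kit+ K5- replicate 1, which had the most Gata1, the 8 mast cell markers summed to 4959 CPM, against at most 224 CPM in the other 11 libraries. Platelet markers were at 3.505 to 50.0 CPM in the other 9 libraries and at 9.60 to 28.4 CPM for Kit- K5- cells. The part of any of these cells in the globin values was not tested.

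**Figure D5:**
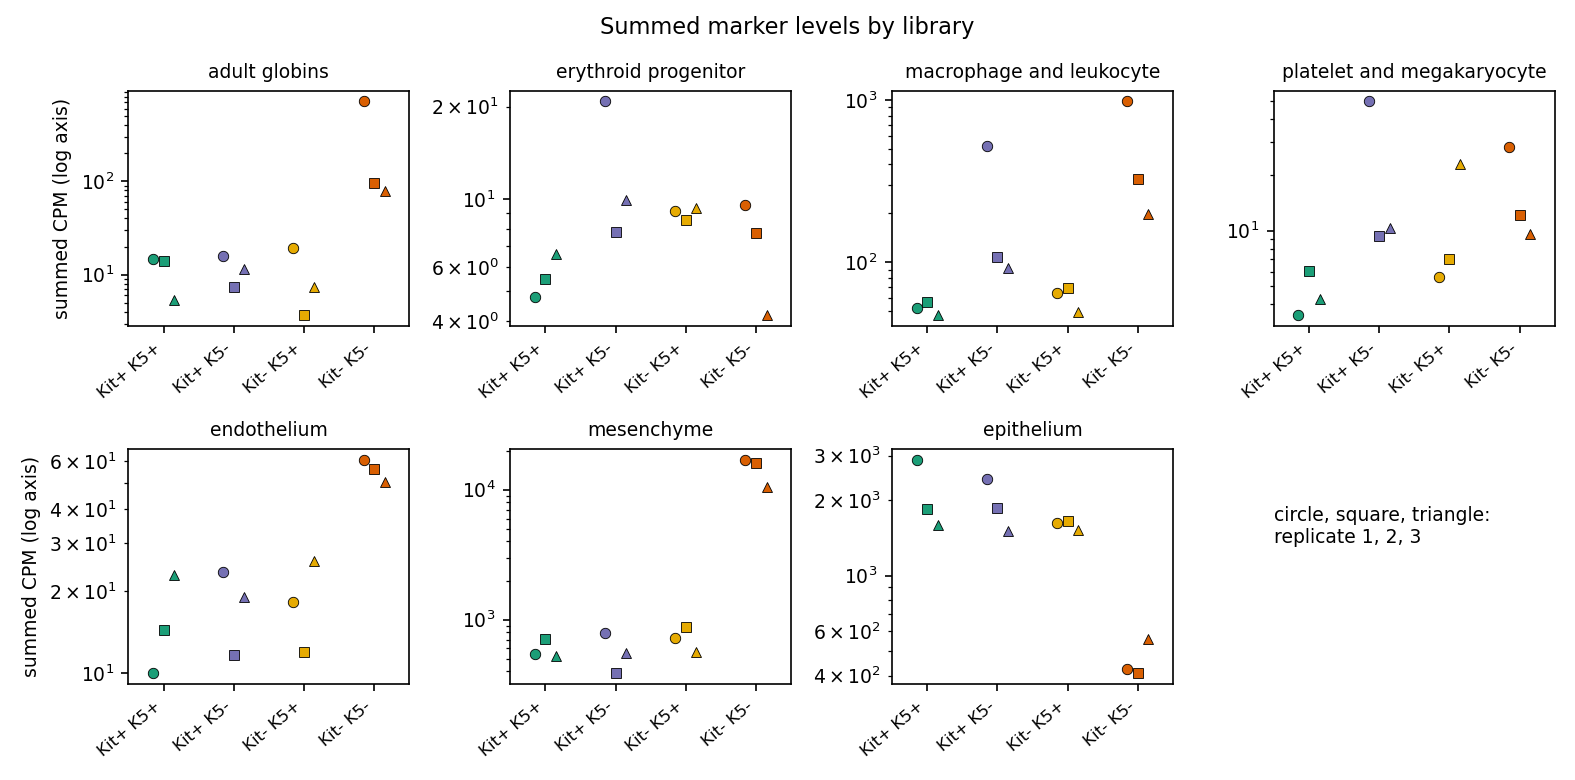
Summed CPM (log axes) of the adult globins and of the marker lists of 6 cell types in each library, by group and replicate symbol. The Kit- K5- libraries are above all others for adult globins, mesenchyme and endothelium and below all others for epithelium, whereas their erythroid progenitor sum of 4.19 to 9.57 CPM lies among the others.

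By the rule of likeness, the 10 genes whose log2 level over the 12 libraries was most like that of the summed adult globins had Pearson correlations of 0.936 to 0.945. They were Rrbp1, Sptbn1, Mfap5, Map7d1, Agtr1a, Fignl2, Tm9sf4, Epb4.1l2, Vstm4 and Rab22a. The 9 genes were left out of this ranking beforehand, so their absence is no result. Of the other red cell lists, no gene was among the 10. These correlations share the split of Kit- K5- from the other libraries. Rrbp1, a ribosome-binding protein of the endoplasmic reticulum, had at most 349 CPM in the other 9 libraries, and 897, 710.1 and 568 CPM in Kit- K5- replicates 1, 2 and 3. Agtr1a, an angiotensin II receptor, had at most 0.67 CPM in the other 9 libraries, and 33.3, 21.8 and 12.8 CPM in these replicates. Both were highest in replicate 1 of that group, as the adult globins were, but the ranking itself favours such genes.

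Since Hbb-y, Hba-x, Hbb-bs, Hbb-bt and Hba-a1 were all highest in Kit- K5- cells, their promoters are shown, as the 150 bases before the RefSeq start on GRCm38.p6. Capitals mark the motifs CACCC (the CACCC box), CCAAT (the CCAAT box), TATAA (the TATA box) and GATA, searched on both strands, and no 2 of these matches overlap. ATTGG in capitals is the CCAAT box read on the other strand. Several GENCODE starts lie further upstream than the RefSeq ones, so part of a window can lie inside a GENCODE transcript.
Hbb-y, chr7:103853208-103853357, minus strand: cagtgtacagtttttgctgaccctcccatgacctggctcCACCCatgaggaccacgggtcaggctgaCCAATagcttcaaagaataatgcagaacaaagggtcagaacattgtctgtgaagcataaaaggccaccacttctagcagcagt
Hba-x, chr11:32276450-32276599, plus strand: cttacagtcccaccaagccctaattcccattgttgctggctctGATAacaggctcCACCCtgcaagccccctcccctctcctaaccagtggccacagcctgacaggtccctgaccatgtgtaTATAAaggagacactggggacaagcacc
Hbb-bs, chr7:103827929-103828078, minus strand: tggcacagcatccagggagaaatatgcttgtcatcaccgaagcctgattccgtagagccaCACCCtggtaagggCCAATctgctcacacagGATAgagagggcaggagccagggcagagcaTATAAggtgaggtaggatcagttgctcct
Hbb-bt, chr7:103813924-103814073, minus strand: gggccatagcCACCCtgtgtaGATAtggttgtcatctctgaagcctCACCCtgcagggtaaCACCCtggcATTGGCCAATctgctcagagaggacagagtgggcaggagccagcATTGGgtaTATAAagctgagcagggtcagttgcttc
Hba-a1, chr11:32283522-32283671, plus strand: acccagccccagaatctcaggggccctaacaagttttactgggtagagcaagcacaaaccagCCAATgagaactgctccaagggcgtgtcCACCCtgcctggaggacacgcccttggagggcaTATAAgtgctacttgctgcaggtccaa

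CACCC, which Klf1 and related factors bind, was in all 5 of these windows, and in 37.4% of 32851 promoter windows of the same length. CCAAT was in Hbb-y, Hbb-bs, Hbb-bt and Hba-a1 and in 24.5% of all windows. TATAA was in Hba-x, Hbb-bs, Hbb-bt and Hba-a1 and in 14.2% of all windows. GATA, the core bound by Gata1, was in Hba-x, Hbb-bs and Hbb-bt and in 35.7% of all windows. The Hba-a2 window shared an unbroken run of 147 of its 150 bases with that of Hba-a1, though only Hba-a1 had counts. Such matches describe the sequence and say nothing of binding in these cells.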

How the data were processed

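The authors deposited raw read counts for 43280 gene symbols per library, in a matrix and in 1 table per library that agreed in all cells. Per the labels' protocols, the authors mapped single 50 nt reads to GRCm38 with STAR 2.4.2a and counted them with featureCounts; per the submitters' processing notes the versions were featureCounts 1.4.6-p3, Picard 1.129 and FastQC with build GRCm38.p3. The sources used here do not give the annotation release, strand setting or treatment of multiply mapped reads. Library totals ran over 5589037 to 13724364 counts, and intervals and floors of 3 counts cover counting error only.

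The analysis used edgeR 4.0.16 in R 4.3.3. The 17030 genes passing filterByExpr were scaled by TMM and fitted for all 12 libraries with 1 coefficient per group (8 residual degrees of freedom, common biological coefficient of variation 0.437). Comparisons were tested by quasi-likelihood with p-values adjusted by Benjamini-Hochberg over all genes tested, at 0.05. Adjusted p-values are edgeR's unless another tool is named. CPM use TMM-scaled library sizes. The fit was tested on simulated data. Alternatives were DESeq2 1.42.0, limma-voom (limma 3.58.1), other scalings and filters, thinning, the compared groups alone, a block on runs and leaving out each library.

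The 9 genes, the marker lists and the other red cell lists were chosen with earlier results of these data known. From each list the text names up to 3 genes called in Kit- K5+ against Kit- K5- cells with the largest difference, together with the 10 genes most like the summed adult globins over the 12 libraries (log2 CPM, prior count 2). Gata1, Klf1 and Apex2 were added after their values were seen. Some results are not reported here.

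Groups come from the labels and replicate numbers from the library numbers, in runs of 4 that each hold every group. The labels do not say that a run shares a sort. Deviations from the group means correlated within runs at 0.108 to 0.408 in 5 of the 6 comparisons. In Kit+ K5- against Kit- K5+ cells they correlated at 0.0928 to 0.365. No such value was computed for the interaction or between runs, so whether the runs pair the libraries was not settled. P-values are from the fit without a block unless the block is named. Unique 50-base stretches were counted among GENCODE M21 transcripts, not the genome.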

Additional observations from a re-analysis of the deposited data

Results flagged for a closer look

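In 3 genes the K5 difference was not the same in Kit+ as in Kit- cells, by edgeR's test of the interaction. Its log2 value was 4.50 for Hbb-bs, 5.27 for Hbb-bt and 11.4 for Hbb-y, whose Kit+ K5- level rested on 1 count. Among Kit- cells these genes were lower in K5+ than in K5- libraries, whereas among Kit+ cells none of them was called. The Kit- K5- libraries alone held high globin, and 38 of the 39 Hbb-y counts among Kit+ cells were in Kit+ K5+ replicate 3.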

How the results depend on the processing

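Of 535 values of the 7 tested genes under alternatives, over 25 results, 479 kept direction and side of the threshold, 50 no longer passed, 6 newly passed and 0 changed direction. The number of the 9 genes called against Kit- K5- cells was 3 with limma-voom for both Kit+ K5- and Kit- K5+ cells, and 3 with DESeq2 for both Kit+ K5+ and Kit- K5+ cells. DESeq2 gave no adjusted p for 3 genes (Hbb-bt, Hba-a1 and Slc4a1) in any comparison, so these count as neither kept nor lost. Against Kit- K5- cells limma-voom called Hba-x, Hbb-bs and Hbb-bt for every group, and Hbb-y and Alas2 for Kit+ K5+ cells alone. It called Hba-a1 and Slc4a1 for no group. DESeq2 called Hba-x and Hbb-bs for every group, Hbb-y for Kit+ K5- and Kit- K5+ cells and Alas2 for both Kit+ groups. In the interaction limma-voom called 0. With no filter on low counts 1 gene, Hbb-y, was called in Kit+ K5+ against Kit- K5+ and in Kit+ K5+ against Kit+ K5- cells. The cause of these changes was not tested.

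Leaving out each library in turn gave 4 to 7 of the 9 genes called in Kit+ K5+, 4 to 6 for Kit+ K5- and 4 to 6 for Kit- K5+ against Kit- K5- cells, 0 to 0 in the other 3 comparisons and 1 to 4 in the interaction. The lowest counts against Kit- K5- cells came without Kit- K5- replicate 1, with 4 in each (for Kit- K5+ cells also without Kit- K5+ replicate 1 or 2). The embryonic share ranged over 0% to 23.8% for Kit+ K5+, 0% to 1.31% for Kit+ K5-, 4.83% to 11.4% for Kit- K5+ and 19.3% to 39.97% for Kit- K5- cells. Summed globin level ranged over 12.3 to 14.4, 9.56 to 13.9, 6.22 to 14.0 and 145 to 442 CPM in the same order. On library totals without mitochondrial genes, which took 5.59% to 30.9% of counts, it was 15.9 CPM for Kit+ K5+ cells. The 13.1 CPM before used TMM-scaled totals, so these values differ in scaling as well.

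With the replicate block on runs, 4 genes passed in the interaction, and the block changed no other call among the 9. Across all genes the calls over alternatives ran over 4153 to 5843, 3297 to 4977 and 2717 to 4057 for Kit+ K5+, Kit+ K5- and Kit- K5+ against Kit- K5- cells, where the fit reported had 4540, 3624 and 2806. Without 1 library they fell to as few as 2910, 2221 and 1408. They ran over 58 to 1212 for Kit+ K5+ against Kit- K5+ cells, where that fit had 112, over 0 to 318 for Kit+ K5+ against Kit+ K5- cells (0), over 66 to 1372 for Kit+ K5- against Kit- K5+ cells (454) and over 547 to 1960 in the interaction (684). Embryonic genes had few counts outside Kit- K5- cells, which limits comparisons among the other 3 groups.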

Other observations

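Kit+ K5+ replicate 3 stood apart in a second globin locus besides Hbb-y. The alpha globin pseudogene Hba-ps4 had 3, 2 and 17 counts in Kit+ K5+ replicates 1, 2 and 3. It had 10, 8 and 2 counts for Kit+ K5- and 0, 1 and 5 for Kit- K5+ cells, against 10, 12 and 12 for Kit- K5- cells. Hba-ps4 thus did not follow the group pattern of the globin genes. It was picked after its values were seen, and it was not called in any comparison with Kit- K5- cells (edgeR, adjusted p = 0.961, 0.878 and 0.478 in Kit+ K5+, Kit+ K5- and Kit- K5+ cells).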
